A study of Homo sapiens with 36 samples.

Results

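The 6 libraries described here, of 36 in the series, come from carboplatin-treated A2780 cis cells (cis carbo, libraries 16, 17 and 18) and carboplatin-treated A2780 cis SSP cells (cis SSP carbo, libraries 28, 29 and 30). Their groups come from the labels, the pair was picked as one in which no library had a shifted gene-length profile, and total RNA was sequenced in each. A2780 is a human ovarian cancer line, and A2780 cis is its resistant counterpart, made by long exposure of the parental cells to cisplatin. The cis SSP cells are the population that grew out of cis cells kept without serine and glycine, in the absence of platinum, so they share the cisplatin history of cis cells and carry a starvation history in addition. Both groups were sampled in medium with serine and glycine, and the labels give the same carboplatin dose for both, written as 6 M with no prefix. The exposure time is not given in the sources used here. Each line is a single population, the study describes its 3 libraries per condition as technical replicates, so the p-values cover nothing beyond the spread between these libraries. The question asked of the comparison is how the transcriptome of a resistant line that had been selected for growth without serine differs from that of its parent when both are exposed to the drug.

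Serine is made from the glycolytic intermediate 3-phosphoglycerate by PHGDH, PSAT1 and PSPH in turn, and the first step reduces NAD+ to NADH. It feeds glycine, the folate one-carbon pool, transsulfuration and phospholipids, and transcription of its enzymes is driven by ATF4, the effector of the amino acid response. Carboplatin is a platinum drug that crosslinks DNA, and a cell with functional p53 answers such lesions by transcribing cell cycle inhibitors and death genes.

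Between 13074937 and 17709476 reads fell on genes in the cis carbo libraries and between 17847615 and 19592665 in the cis SSP carbo libraries, so the depths of the groups did not overlap. The share of counted reads outside any annotated exon was 7.25% to 8.66% in cis carbo and 5.71% to 6.42% in cis SSP carbo, and the share of gene reads on mitochondrially encoded genes was 2.996% to 5.29% and 5.42% to 6.99%. Within cis carbo, library 17 stood apart, with shares of 8.66% and 2.996%. Libraries 16 and 18 had 7.25% and 7.28% outside exons, and 5.29% and 4.34% on mitochondrial genes. The part of these differences in the results was not tested. Of 19 markers of ovarian carcinoma and the Mullerian lineage, 17 were matched and 12 of these had at most 3 counts in every cis carbo library, against 9 in the cis SSP carbo libraries. Their summed level was 19.8 to 21.8 CPM (read counts scaled to a common library total with TMM factors) in cis carbo and 18.8 to 21.02 CPM in cis SSP carbo, nearly all of it from the keratin KRT18, while PAX8 reached at most 0.288 CPM, and MUC16 and WFDC2 had 1 and 0 counts over all 6 libraries. All 10 matched markers of blood and endothelium had at most 3 counts in every library. Of 6 fibroblast markers 5 were tested and 5 were higher in cis SSP carbo, with a summed level of 88.3 to 89.5 CPM in cis carbo and 357 to 369 CPM in cis SSP carbo. In a bulk library fewer cells expressing a gene and less RNA per cell cannot be told apart.

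The lines differed in most of the genes they expressed. Of 13882 genes tested with edgeR, 4818 (34.7%) were higher and 4792 (34.5%) lower in cis SSP carbo at an adjusted p under 0.05, which is 69.2% of the genes in either direction. The libraries of a group agreed closely, with a common dispersion of 9.72e-04, so that small differences passed. The number with an absolute log2 fold of at least 1 was 1841, or 13.3% of the genes tested, and the CPM of the groups did not overlap for 71.4% of the genes. Every list below is read against these shares.

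**Figure D1:**
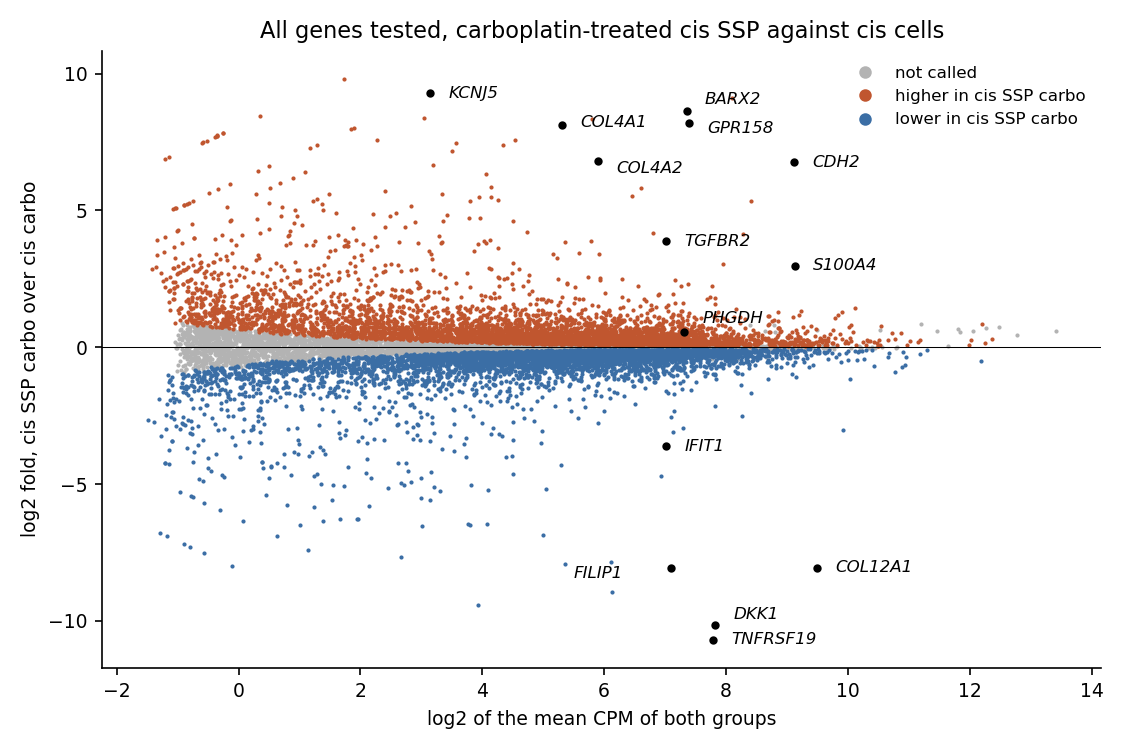
Log2 fold of cis SSP carbo over cis carbo (vertical axis) against the log2 of the mean CPM of both groups (horizontal axis) for the 13882 genes tested, 1 point per gene, with 14 named genes in black. The 4818 higher and 4792 lower genes fill both sides, and a sparse set of genes, scarce and abundant, lies beyond a log2 of 5 in either direction.

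The genes lost in cis SSP carbo were led by TNFRSF19, a member of the TNF receptor superfamily (chr13:24144509-24250243 on GRCh37) and the secreted Wnt inhibitor DKK1 (chr10:54074041-54077802). TNFRSF19 read 434, 441 and 442 CPM in cis carbo and 0.210, 0.277 and 0.288 CPM in cis SSP carbo. DKK1 read 453, 444 and 460 CPM in cis carbo and 0.473, 0.555 and 0.115 CPM in cis SSP carbo. The remaining reads were few, 14 for TNFRSF19 and 21 for DKK1 over 3 libraries, and the ratios of 1706 (95% counting interval 1016 to 3120.45) and 1173 (767 to 1895) are known only within those intervals, which cover counting error alone. COL12A1, a fibril-associated collagen (chr6:75794042-75915983), fell from 1297 to 1616 CPM in cis carbo to 4.84 to 5.82 CPM in cis SSP carbo, a log2 fold of -8.05 ± 0.17 (edgeR adjusted p = 2.12e-06). The bicarbonate cotransporter SLC4A4 was 503-fold lower (counting interval 305 to 900), FILIP1, a filamin-binding protein, 270.4-fold (208 to 359), the prostaglandin E receptor PTGER3 248-fold (157 to 419) and the RNA-binding protein KHDRBS3 234-fold (166 to 343). WLS, which carries Wnt ligands to the cell surface, was 91.2-fold lower (58.9 to 149.8) and the transcription factor TCF4 91.5-fold (56.1 to 161), on 20 and 16 remaining reads.

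The genes gained in cis SSP carbo were as far apart. N-cadherin, CDH2 (chr18:25512843-25757910), read 10.2, 9.65 and 10.6 CPM in cis carbo and 1094, 1112 and 1105 CPM in cis SSP carbo, a log2 fold of 6.77 ± 0.03 (edgeR adjusted p = 1.07e-38). The homeobox gene BARX2 (chr11:129245743-129322174) stood at 0.678 to 1.06 CPM in cis carbo and 312 to 336 CPM in cis SSP carbo, and the orphan receptor GPR158 at 0.998 to 1.43 CPM and 324 to 341 CPM. No library of one group reached the range of the other for any of the 3. The basement membrane chains COL4A1 and COL4A2, which lie head to head and overlap in the annotation, were 284-fold (counting interval 166 to 534) and 113-fold (85.3 to 153) higher. PSD3, an exchange factor for ARF6, was 326-fold higher (200.3 to 570) on 16 reads in cis carbo, the adhesion receptor ADGRF4 171-fold (95.6 to 344) on 11 reads, and the mineralisation protein DMP1 105-fold (53.3 to 245) on 8 reads.

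Some genes were at the floor in every library of one group. In cis carbo 17 genes had at most 3 counts in each library and at least 50 in each cis SSP carbo library, and 9 genes showed the opposite. The potassium channel KCNJ5 had 0, 0 and 1 counts in cis carbo and 335, 341 and 288 in cis SSP carbo, at least 90.7-fold higher against a floor of 3 counts per library. Above their floors by the same reckoning were OLFML1 (at least 121-fold), the glypican GPC5 (at least 84.3-fold), the angiopoietin receptor TEK (at least 49.2-fold) and the intestinal homeobox factor CDX2 (at least 28.2-fold). The cGMP-dependent kinase PRKG1 had 553, 416 and 459 counts in cis carbo and 1, 0 and 1 in cis SSP carbo, at least 185-fold lower. It was followed by the ATP receptor P2RX5 (at least 75.9-fold lower), the ubiquitin hydrolase UCHL1 (at least 46.0-fold), PIM2, a survival kinase (at least 34.2-fold), the cadherin CDH10 (at least 28.03-fold) and the prostaglandin synthase PTGS2 (at least 26.5-fold). Sensitive A2780 cells under the same drug differed from both groups for some of these genes. UCHL1 and CDH10 averaged 110.3 and 65.2 CPM there against 7.61 and 4.64 CPM in cis carbo, and GPC5 15.3 CPM against 16.46 CPM in cis SSP carbo, while P2RX5 stood at 0.168 CPM, TEK at 0.0194 CPM and CDX2 had no count.

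Some of the most different genes were chromosomal neighbours. Among 12274 genes with a mean of at least 20 counts, 141 had an absolute log2 fold of at least 4, of which 77 were higher and 64 lower in cis SSP carbo. For 51 of the 141, an adjacent gene of that list differed in the same direction by a log2 of at least 2. Both sides on the same chromosome were searched. Of the genes compared, 3.4% reached this size in either direction. The adjacent homeobox genes HOXB6, HOXB7, HOXB8 and HOXB9 were higher by log2 3.81, 5.37, 4.72 and 5.83. DKK1 overlaps the antisense transcript PRKG1-AS1, which fell by 6.28. The proteoglycan genes DCN and LUM, whose starts are 37.9 kb apart, rose by 4.83 and 3.55. GPD2, the mitochondrial glycerol-3-phosphate dehydrogenase, and the nuclear receptor NR4A2 started 111 kb apart and had log2 folds of -5.03 and -4.19. Reads of overlapping genes such as PRKG1, PRKG1-AS1 and DKK1 cannot be separated with certainty, since the strand setting of the counting is not given in the sources used here.

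PHGDH (chr1:120191034-120286841), the first enzyme of serine synthesis, was the only one of the 3 that was higher in cis SSP carbo. It read 131, 124 and 132 CPM in cis carbo and 187, 191 and 186 CPM in cis SSP carbo. The groups did not overlap, and the difference of 0.55 ± 0.03 on the log2 scale, 1.46-fold, passed the test (edgeR adjusted p = 3.35e-15). PSAT1, the aminotransferase of the second step (chr9:80912041-80945009), went the other way, with 705, 678 and 707 CPM in cis carbo and 559, 591 and 559 CPM in cis SSP carbo (log2 fold -0.28 ± 0.02). PSPH, the phosphatase of the last step (chr7:56078744-56119297), was lower by a smaller amount, with 81.5 to 84.7 CPM against 73.4 to 77.3 CPM (log2 fold -0.12 ± 0.04, edgeR adjusted p = 0.00407), and its call was lost in a fit with the untreated libraries (edgeR adjusted p = 0.238).

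Transporters of serine and related amino acids were mostly lower in cis SSP carbo. Of 10 tested, 2 were higher, 6 lower and 2 not called. The cystine importer SLC7A11 was lowest, at 77.0, 80.5 and 76.8 CPM in cis carbo and 26.9, 28.95 and 28.92 CPM in cis SSP carbo (log2 fold -1.46 ± 0.05). SLC1A4 and SLC1A5, exchangers of neutral amino acids including serine, had log2 folds of -0.53 and -0.48, with 83.1 to 87.1 CPM against 54.6 to 60.6 CPM for SLC1A4 and 422 to 428 CPM against 294 to 318 CPM for SLC1A5. The mitochondrial serine carrier SFXN1 had a log2 fold of -0.12 and its relative SFXN3 one of -0.72. SLC38A2, a sodium-coupled importer of small neutral amino acids, was the larger of the 2 increases, with 672 to 686 CPM in cis carbo and 884 to 899.8 CPM in cis SSP carbo (log2 fold 0.39 ± 0.02).

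**Figure D2:**
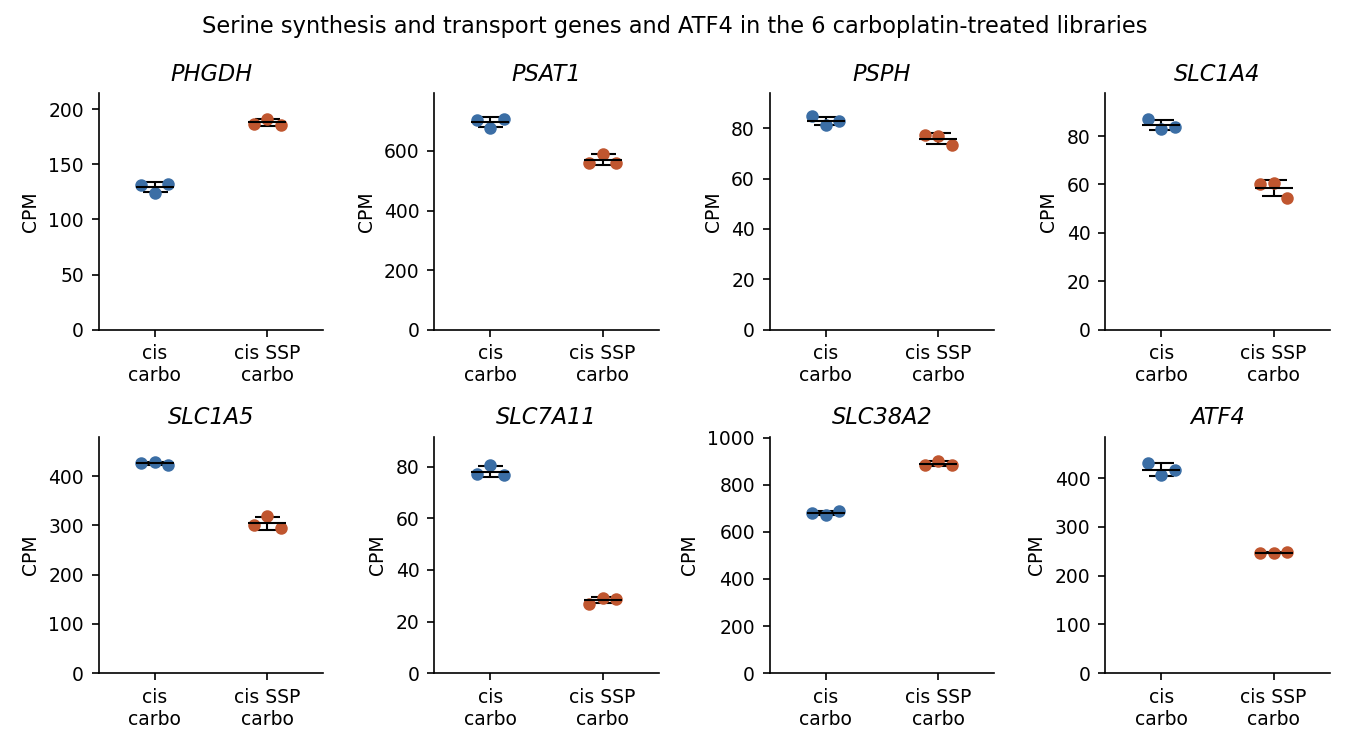
CPM of the 3 serine synthesis genes, 4 transporters and ATF4 (vertical axes from 0) in the 3 cis carbo and 3 cis SSP carbo libraries, 1 point per library, with the mean and SD as bars. PHGDH and SLC38A2 sit higher in every cis SSP carbo library, and the other 6 genes lower.

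PHGDH shared its direction with the genes around it. Within 10 Mb of its start 55 other genes had a mean of at least 20 counts, and 50 of them were called higher and 1 lower, with a median log2 fold of 0.94. The fold was larger than that of PHGDH for 47 of the 55. The same genes had medians of 0.85 in untreated medium, 0.91 without serine and glycine and 0.99 without them under carboplatin, in comparisons of other libraries of the same lines. Over 261 windows of 10 Mb with at least 15 genes, the median of the window medians was -0.01, and 3 windows exceeded 0.5. The first, on chromosome 1, ran from base 110000001 to 120000000 and ended before the start of PHGDH (median 0.97). The others were the first 10 Mb of chromosome 2, where 21 of 21 genes had a positive fold (median 0.98), and the mitochondrial genome (median 0.62). The 10 windows under -0.5 comprised 7 on the long arm of chromosome 8, 2 on chromosome 6 and the first 10 Mb of chromosome 20. Chromosome 8 as a whole had a median of -0.41 over 421 genes, with 267 called lower and 87 higher. KHDRBS3, SLC25A32, NAPRT, SQLE, RRM2B, RAD54B and MYC, named in other paragraphs, lie on its long arm. Among other named genes, COL12A1 and FILIP1 lie in a chromosome 6 window under -0.5 and TRIB3 in that of chromosome 20. The part of position in their values was not tested. DNA was not measured in this series. The exome sequencing that the study reports covers A2780 cis cells and names no cis SSP cells.

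**Figure D3:**
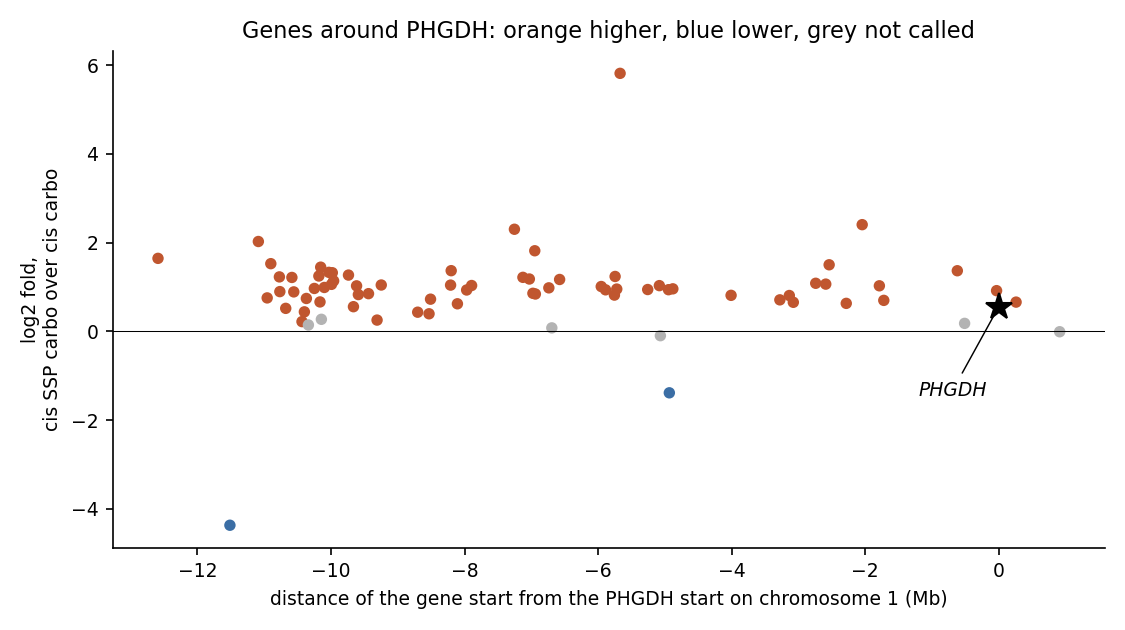
Log2 fold of cis SSP carbo over cis carbo (vertical axis) for genes with a mean of at least 20 counts, by the distance of their start from that of PHGDH in Mb (horizontal axis), with PHGDH as a star. Of the 55 other genes within 10 Mb, 50 are called higher and 1 lower, and PHGDH lies under most of them.

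ATF4 and most of the genes known to follow it were lower in cis SSP carbo. ATF4 itself read 431, 406 and 416 CPM in cis carbo and 247, 247 and 248 CPM in cis SSP carbo, a log2 fold of -0.75 ± 0.02 (edgeR adjusted p = 6.15e-20). Of 20 tested members of the list of ATF4 and its targets, 4 were higher, 13 lower and 3 not called, and the median log2 fold was -0.68 against 0.00418 for all genes tested. DDIT3, which encodes the stress factor CHOP, was at 33.3 to 34.1 CPM against 7.82 to 9.85 CPM, and TRIB3, a pseudokinase that restrains ATF4, at 210.0 to 218.9 CPM against 64.8 to 67.4 CPM. The groups did not overlap for either gene, although DDIT3 overlaps MARS1 in the annotation. TRIB3 lies in the first 10 Mb of chromosome 20, a window with a median log2 fold of -0.55. The part of position in its value was not tested. Asparagine synthetase ASNS, the growth factor GDF15 and the glutathione-degrading enzyme CHAC1 had log2 folds of -0.84, -0.83 and -0.75. The stress protein NUPR1 had the largest increase, with 5.05 to 6.80 CPM in cis carbo and 37.7 to 39.8 CPM in cis SSP carbo (log2 fold 2.70 ± 0.08), and ATF5 and SESN2 were also higher.

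The cytosolic aminoacyl-tRNA synthetases, which load amino acids on tRNA and are transcribed in the amino acid response, mostly had the direction of ATF4. Of 20 tested, 16 were lower, 3 higher and 1 not called, with a median log2 fold of -0.35. Those for valine, cysteine and glycine were lowest, with log2 folds of -1.14 for VARS1, -0.79 for CARS1 and -0.75 for GARS1. Those for glutamine, serine and glutamate plus proline were higher, QARS1 by 0.53 ± 0.03, SARS1 by 0.22 ± 0.03 and EPRS1 by 0.08 ± 0.02. SARS1 starts 10.4 Mb from PHGDH, in a window of chromosome 1 with a median log2 fold of 0.41. The calls of SARS1 and EPRS1 were lost in a fit with the untreated libraries, which has a wider spread (edgeR adjusted p = 0.125 and 0.658), and that of EPRS1 also by total counts (0.175).

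Because most of these genes were lower together, their promoters were searched for the letters TGATGNAA and the reverse complement TTNCATCA, a core shared by C/EBP-ATF response elements, in the 250 bases before and 50 after each start in RefSeq (GRCh38.p14, a later build than the files). The letters occurred in 3.67% of 27305 promoters. They occurred in 6 of the 16 synthetase promoters at hand (AARS1, CARS1, IARS1, MARS1, NARS1 and TARS1), all 6 of genes that were lower, and in 3 of 18 promoters of the ATF4 list (ASNS, CHAC1 and ATF3), all 3 lower as well. Neither of the 2 promoters of serine synthesis genes at hand held them. Over all tested members, 16 of 20 synthetases and 13 of 20 genes of the ATF4 list were lower. A link between the letters and the direction was not tested. A match is a description of these letters and not of binding. The stretches around 5 of the matches, upstream of the start and shown because these genes carry the pattern, have the match in capitals:
ASNS (chr7:97872444-97872501, minus strand): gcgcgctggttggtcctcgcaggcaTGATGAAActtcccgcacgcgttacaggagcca
CHAC1 (chr15:40953237-40953294, plus strand): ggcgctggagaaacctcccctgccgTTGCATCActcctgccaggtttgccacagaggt
ATF3 (chr1:212565191-212565248, plus strand): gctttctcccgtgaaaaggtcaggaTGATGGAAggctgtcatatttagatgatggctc
AARS1 (chr16:70289661-70289718, minus strand): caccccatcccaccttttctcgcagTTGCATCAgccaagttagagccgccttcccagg
IARS1 (chr9:92293698-92293735, minus strand): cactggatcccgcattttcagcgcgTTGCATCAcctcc

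In the folate one-carbon and glycine cleavage list, as many genes were higher as lower. Of 18 tested genes, 8 were higher, 8 lower and 2 not called. Among mitochondrial enzymes, SHMT2, MTHFD2, MTHFD1L and ALDH1L2 had log2 folds of -0.32, -0.39, -0.32 and -0.79, and the mitochondrial folate carrier SLC25A32 one of -0.64, whereas the mitochondrial MTHFD2L was higher by 0.85 ± 0.12. Thymidylate synthase TYMS, at 95.8 to 98.5 CPM in cis carbo and 173 to 177 CPM in cis SSP carbo, was higher by 0.85 ± 0.03. In the methionine cycle and transsulfuration list 5 of 9 were higher and 3 lower. The lower ones were cystathionine gamma-lyase CTH, the last step from serine to cysteine, at 33.7 to 36.5 CPM against 3.72 to 3.95 CPM (log2 fold -3.18 ± 0.08), AHCY, which hydrolyses S-adenosylhomocysteine (log2 fold -1.15 ± 0.02), and the methionine synthase reductase MTRR (-0.82 ± 0.04). CTH starts 441 kb from PTGER3. ALDH1L2, SLC25A32, TYMS and MTRR overlap other expressed genes in the annotation, which makes their counts less certain.

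Enzymes of NAD synthesis had members on both sides. Of 11 tested, 5 were lower (45.5%), 3 higher (27.3%) and 3 not called, beside 34.5% lower and 34.7% higher over all genes. The neuronal NMN adenylyltransferase NMNAT2 read 6.09, 5.35 and 5.49 CPM in cis carbo and 0.684, 0.555 and 0.691 CPM in cis SSP carbo. NAPRT, which starts the pathway from nicotinic acid, read 9.54, 7.91 and 9.66 CPM and 4.58, 2.88 and 3.34 CPM, a log2 fold of -1.32 ± 0.14 (edgeR adjusted p = 4.65e-09), and overlaps an unnamed transcript. NAMPT, the rate-limiting enzyme of salvage from nicotinamide, was at 58.4 to 68.6 CPM against 46.1 to 51.6 CPM (log2 fold -0.37 ± 0.06). The nuclear NMNAT1 was higher by 0.64 ± 0.08. Of 25 tested genes in a list of dehydrogenases, not all of which use NAD or NADP, 10 were higher and 13 lower. GPD2 was lowest, at 26.8 to 27.9 CPM against 0.789 to 0.887 CPM.

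PARP1, the main consumer of NAD at damaged DNA, was not called. It read 579, 582 and 587 CPM in cis carbo and 569, 578 and 570.1 CPM in cis SSP carbo, with a log2 fold of -0.02 ± 0.02 (edgeR adjusted p = 0.401), although the ranges of the groups did not overlap. The call depended on the scaling, with -0.0608 by total counts (edgeR adjusted p = 0.0196) and 0.0668 with the length trend removed (edgeR adjusted p = 0.00739). Of 20 tested genes of the PARP family and poly(ADP-ribose) turnover 6 were higher, 6 lower and 8 not called. The mono-ADP-ribosyltransferase TIPARP had a log2 fold of -1.996 ± 0.078, while PARP3 and the tankyrase TNKS2 were higher by 0.92 ± 0.06 and 0.93 ± 0.04.

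Cholesterol synthesis was the list with the largest share of lower genes among those with at least 7 tested members. Of 21 tested, 19 were lower and 2 higher, and the median log2 fold was -0.79. MSMO1, a sterol C4-methyl oxidase, read 147, 141 and 152 CPM in cis carbo and 35.5, 34.1 and 33.1 CPM in cis SSP carbo (log2 fold -2.09 ± 0.04). Squalene epoxidase SQLE had a log2 fold of -1.56 ± 0.03, and INSIG1, the sterol-sensing brake on SREBP, one of -1.38 ± 0.04. The genes of both SREBP factors differed in direction, with log2 folds of -0.53 for SREBF2 and 0.19 ± 0.04 for SREBF1. Fatty acid elongases and desaturases had 10 lower and 4 higher of 16, from ELOVL4 (log2 fold -2.52 ± 0.09), which makes very long chains, to the dehydratase HACD1 (1.02 ± 0.10), with the desaturases FADS2 and SCD higher by 0.85 and 0.22. The calls of SREBF1 and SCD were lost in a fit with the untreated libraries (edgeR adjusted p = 0.0564 and 0.301).

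**Figure D4:**
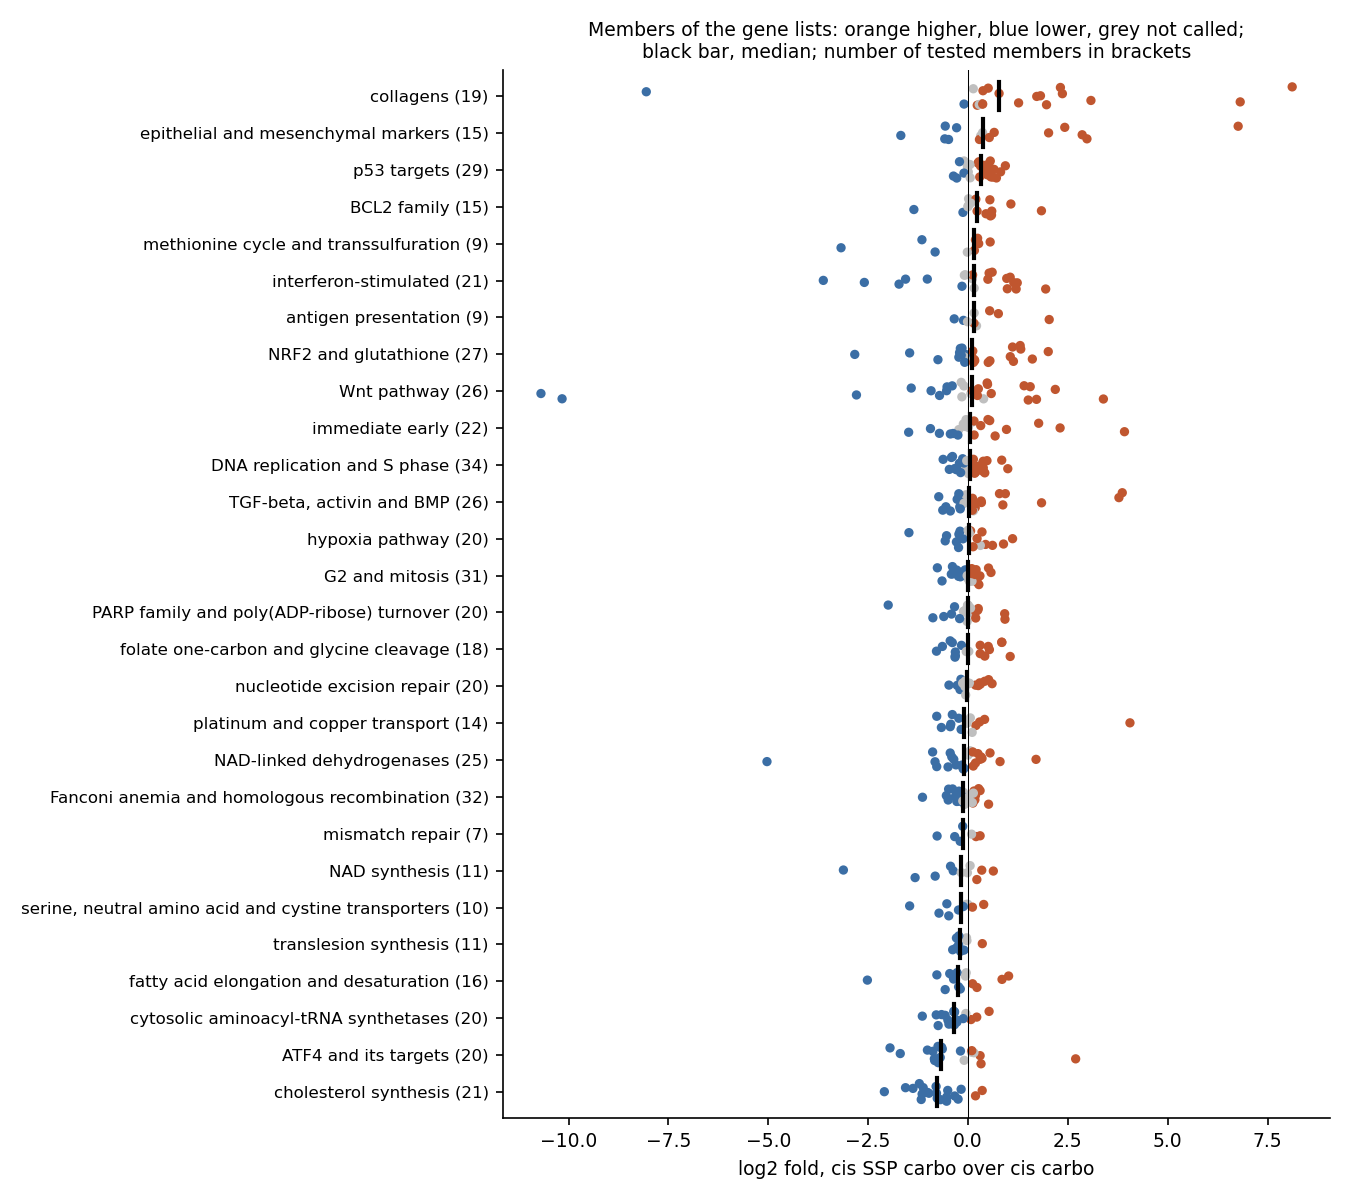
Log2 fold of cis SSP carbo over cis carbo (horizontal axis) of the tested members of 28 gene lists with at least 7 tested members (vertical axis, ordered by median), 1 point per gene. The medians run from -0.79 for cholesterol synthesis and -0.68 for ATF4 and its targets to 0.32 for p53 targets and 0.78 for collagens.

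Targets of p53 were called higher more often than lower under the drug. Of 29 tested, 18 were higher, 4 lower and 7 not called, beside 34.7% higher and 34.5% lower over all genes, and the median log2 fold was 0.32. TP53I3, a quinone oxidoreductase, was at 47.5 to 54.0 CPM in cis carbo and 94.5 to 101 CPM in cis SSP carbo (log2 fold 0.94 ± 0.04), TRIAP1 was higher by 0.82 ± 0.03 and ferredoxin reductase FDXR by 0.71 ± 0.04. The cell cycle inhibitor CDKN1A and the p53 ligase MDM2, named after their values were seen, averaged 322 ± 1.83 and 292 ± 13.1 CPM in cis carbo and 382 ± 9.72 and 416 ± 0.854 CPM in cis SSP carbo (SD, n = 3). RRM2B, the p53-driven ribonucleotide reductase subunit on chromosome 8, had a log2 fold of -0.36 ± 0.03, and its call was lost in a fit with the untreated libraries (edgeR adjusted p = 0.0993). In the BCL2 family 9 of 15 were higher and 2 lower. BAK1 and BCL2L11, which promote death, were higher by log2 0.59 and 0.55, as was the survival gene BCL2L2 by 0.56, while BCL2 itself had a log2 fold of -1.35 ± 0.15.

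Cell cycle and repair lists had members on both sides. For DNA replication and S phase, 17 of 34 were higher and 11 lower, led by ribonucleotide reductase RRM2, which read 304, 293 and 294 CPM in cis carbo and 587, 599 and 587 CPM in cis SSP carbo (log2 fold 0.998 ± 0.023). For G2 and mitosis, 12 of 31 were higher and 11 lower, with CDK1 higher by 0.58 ± 0.03 and MKI67 lower (log2 fold -0.65 ± 0.09). Fanconi anemia and homologous recombination genes had 14 lower and 7 higher of 32, with RAD54B lowest (log2 fold -1.14 ± 0.09) and values of -0.31 and -0.48 for BRCA1 and BRCA2. Nucleotide excision repair, the main route for platinum adducts within a strand, had 7 higher and 5 lower of 20, among them the damage sensor XPC (log2 fold 0.42) and the nuclease subunit ERCC1 (-0.27). The calls of MKI67 and ERCC1 were lost in a fit with the untreated libraries (edgeR adjusted p = 0.138 and 0.178). Translesion synthesis, which copies past adducts, had 8 lower and 1 higher of 11, and mismatch repair 4 lower and 2 higher of 7.

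Among carriers of platinum and copper, 4 of 14 were higher and 7 lower. The export pump ABCC2 read 1.38, 0.904 and 0.998 CPM in cis carbo and 18.8, 18.2 and 18.7 CPM in cis SSP carbo (log2 fold 4.06 ± 0.13), and the copper importer SLC31A1, a route of platinum uptake, 137 to 148 CPM and 89.8 to 90.5 CPM (-0.67 ± 0.03). The copper exporters ATP7A and ATP7B had log2 folds of 0.42 and -0.44, and both calls were lost in a fit with the untreated libraries (edgeR adjusted p = 0.442 and 0.127). Both metallothioneins tested were higher, MT2A by 2.29 ± 0.08 and MT1X by 1.04 ± 0.15, though near-identical paralogs may share their reads. In the NRF2 and glutathione list 14 of 27 were higher and 11 lower. NQO1, a quinone reductase, was higher by 1.31 ± 0.03 and HMOX1 by 1.12, while the microsomal transferase MGST1 had a log2 fold of -2.83 ± 0.15.

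Matrix and surface genes held the widest spread. Of 19 collagens 15 were higher and 2 lower, with COL1A1 higher by log2 2.36 beside the type IV chains and COL12A1 as the lowest member. In the list of epithelial and mesenchymal markers, 8 of 15 were higher and 5 lower, led by CDH2, the calcium-binding protein S100A4 (121 to 130.4 CPM against 976 to 1004 CPM) and the gelatinase MMP2 (log2 fold 2.42 ± 0.19). The matricellular protein SPARC was lowest, at -1.68 ± 0.10. In the Wnt list 12 of 26 were higher and 9 lower, with WNT5B, a non-canonical ligand, at 5.92 to 7.01 CPM against 62.8 to 68.4 CPM. In the list of TGF-beta, activin and BMP genes 12 of 26 were higher and 11 lower. The type II receptor TGFBR2 read 16.1, 17.11 and 17.02 CPM in cis carbo and 245, 244 and 237 CPM in cis SSP carbo (log2 fold 3.86 ± 0.04), and the BMP antagonist NOG was higher by 3.78 ± 0.20. Of the fibroblast markers the growth factor receptor PDGFRA changed most in CPM, from 11.3 to 12.7 CPM to 208 to 213 CPM.

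Interferon-stimulated genes split within the list, with 11 of 21 higher and 6 lower. IFIT1, IFIT2 and IFIT3, neighbours that overlap LIPA, had log2 folds of -3.62, -2.59 and -1.56, with IFIT1 at 231 to 244 CPM in cis carbo and 19.01 to 19.8 CPM in cis SSP carbo. LIPA itself, a lysosomal lipase outside the list, averaged 1724 and 212 CPM. OAS3, STAT2 and IFITM2 were higher by 1.21, 1.06 and 1.95. Of 9 antigen presentation genes 4 were higher and 2 lower, and CD274, which encodes PD-L1, was highest. Hypoxia genes had 8 higher and 9 lower of 20. Immediate-early genes had 10 higher and 6 lower of 22, from EGR2 (log2 fold -1.48 ± 0.06) and MYC (-0.71 ± 0.03) to FOSL1 (1.77 ± 0.05) and KLF4 (3.92 ± 0.26).

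Whether the line difference depended on the drug was tested as an interaction, with the 6 untreated libraries of the same lines added. It shares the treated libraries with the comparison above. Of 14428 genes 73 were called (0.506%), 61 with a more positive line difference under carboplatin and 12 with a more negative one. Scaling by total counts in place of TMM gave 45 calls, 33 positive and 12 negative. Library 25, an untreated cis SSP library, stood apart from libraries 26 and 27, with 4.95% of its reads outside exons against 6.996% and 6.868%. Without it 2102 of 14716 genes were called (14.3%), 1383 positive and 719 negative. All 73 genes were also called without it. Of the genes named next, MYCL, PXN and PCDH1 were called whichever of the 12 libraries was left out, CD274 in 10 of 12 such fits, SLC2A4 in 7, INSIG1 in 6, FOS in 5 and RRM2 in 3.

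MYCL, a MYC family factor, stood apart in cis SSP carbo. It read 21.2 to 22.6 CPM in cis, 21.1 to 26.0005 CPM in cis carbo, 17.1 to 21.4 CPM in cis SSP and 57.2 to 65.8 CPM in cis SSP carbo (interaction log2 1.57 ± 0.15, edgeR adjusted p = 0.00108). CD274 stood at 0.812 to 1.07, 1.72 to 2.19, 0.919 to 1.32 and 7.55 to 8.60 CPM in the same order (1.74 ± 0.25, edgeR adjusted p = 0.0117). The focal adhesion protein PXN was at 49.5 to 52.5, 61.6 to 62.9, 31.96 to 48.7 and 144 to 149 CPM (1.45 ± 0.18). PCDH1, a protocadherin, was already higher in untreated cis SSP (24.7 to 26.2 CPM against 6.17 to 7.22 CPM) and reached 85.4 to 91.5 CPM under the drug, while cis carbo stayed at 7.46 to 8.39 CPM. RRM2 stood at 262 to 269 CPM in cis, 293 to 304 CPM in cis carbo, 340.4 to 368 CPM in cis SSP and 587 to 599 CPM in cis SSP carbo (interaction log2 0.53, edgeR adjusted p = 0.0275). CDKN1A and the death receptor FAS, chosen after their values were seen, had interactions of 0.87 (edgeR adjusted p = 0.00405) and 0.94 (edgeR adjusted p = 0.00208).

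A smaller set went the other way. INSIG1 was lower with the drug in both lines, at 102 to 106 CPM without and 83.5 to 86.9 CPM with it in cis, and 58.0 to 59.7 CPM and 31.9 to 34.7 CPM in cis SSP (interaction log2 -0.59 ± 0.08, edgeR adjusted p = 0.00995). FOS was at 15.5 to 17.9 and 16.7 to 20.6 CPM in cis without and with the drug, and at 56.0 to 64.7 and 33.1 to 38.5 CPM in cis SSP. The glucose transporter SLC2A4 had 4.80 to 8.20 CPM in the other 3 conditions and 2.16 to 3.21 CPM in cis SSP carbo. For PHGDH the interaction was -0.52 ± 0.17 and not called (edgeR adjusted p = 0.299), and without library 25 it was -0.33 and called (edgeR adjusted p = 5.37e-07).

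**Figure D5:**
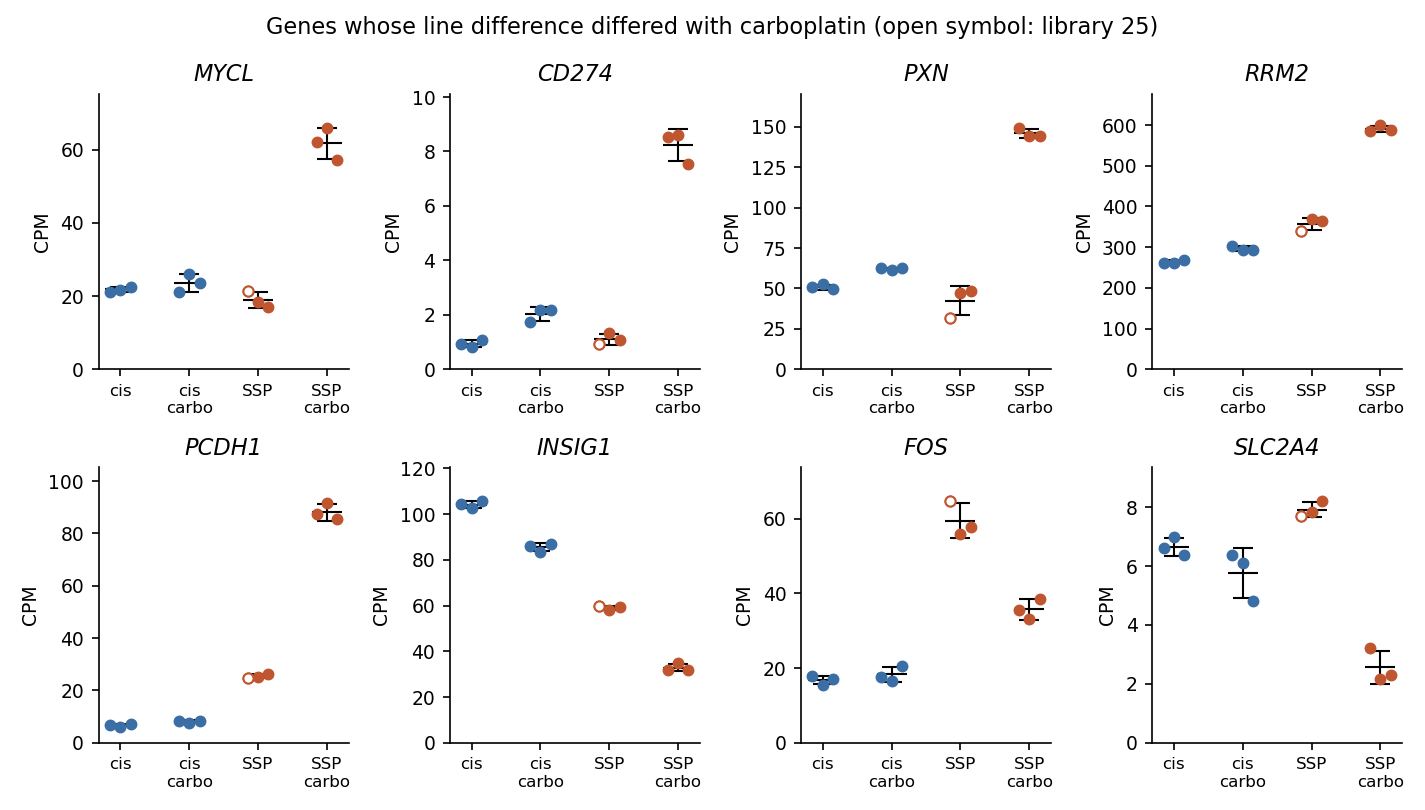
CPM (vertical axes from 0) of 8 genes in untreated and carboplatin-treated cis and cis SSP libraries, 1 point per library with the mean and SD of 3 as bars, and library 25 as an open symbol. The upper row and PCDH1 peak in cis SSP carbo, while INSIG1, FOS and SLC2A4 are lower in cis SSP carbo than in untreated cis SSP.

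By list, the interaction called 3 of 29 p53 targets positive and 0 negative, with a median log2 of 0.37 against -0.0119 over all genes. Without library 25 it called 26 of 29 positive and 0 negative, with a median of 0.34, beside the 14.3% of all genes called there. For cholesterol synthesis 1 of 21 was called, and without library 25 there were 2 positive and 5 negative. For ATF4 and its targets 1 of 21 was called, and 4 positive and 3 negative without library 25.

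The line difference was also read in 3 pairs of conditions that share no library with the treated pair. In untreated complete medium 3990 of 13714 genes were called (29.1%), and 9262 without library 25. Without serine and glycine 6421 of 14342 were called (44.8%), and with carboplatin added 10561 of 14313 (73.8%). Libraries stood apart in both, with 4.21% of reads outside exons in cis SSP library 32 against 5.88% and 6.56% in its companions, and 17.9% and 14.9% in cis libraries 23 and 24 with both serine starvation and drug against 8.53% in library 22. Their part in the values below was not tested. Of the treated-pair genes called with an absolute log2 of at least 1, the sign was the same for 99.1% of 1644 in untreated medium, 86.4% of 1721 without serine and glycine and 88.7% of 1741 without them under carboplatin. Across all genes tested Pearson's r of the log2 folds was 0.93, 0.70 and 0.73, where the genes are not independent and each pair of comparisons shares the 2 cell lines.

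Some lists had other medians in the other media. Cholesterol synthesis had 2 higher and 14 lower of 21 in untreated complete medium, but 11 higher and 4 lower without serine and glycine and 16 higher and 4 lower without them under carboplatin, with medians of -0.69, 0.54 and 0.46. For G2 and mitosis the medians were -0.13, 1.18 and 1.49 in the same order, and all 31 genes were higher in the last, the comparison with libraries 23 and 24. The p53 targets had medians of -0.04, -0.62 and 0.08, and ATF4 and its targets -0.47, -0.38 and -1.12. PHGDH had log2 folds of 1.06, 1.56 and 0.93, each called and each above the 0.55 under carboplatin in complete medium. Differences between these conditions were tested only for the drug in complete medium.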

How the data were processed

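The deposited table holds raw read counts per gene for 36 libraries. The authors sequenced single reads of 65 bases, aligned them to GRCh37.p13 with STAR and counted them on GENCODE exons with HTSeq. Strand setting and treatment of multiply mapped reads are not given in the sources used here. Groups follow the labels. Symbols and coordinates come from a later GENCODE release lifted to GRCh37 (55538 of 57820 identifiers matched). Counts were tested with edgeR 4.0.16 (TMM, filterByExpr, robust quasi-likelihood, Benjamini-Hochberg adjustment, threshold 0.05), with DESeq2 1.42.0 as an alternative. The ± after a log2 fold is its standard error, and CPM is scaled by TMM over 36 libraries. The scripts were tested on simulated data.

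The libraries and the 33 gene lists were chosen with earlier results of these data known. Named genes are the study's serine and NAD genes, up to 3 called genes per list and direction (mean of at least 50 counts, groups apart), the 12 protein-coding genes with the largest change each way (mean of at least 100 counts), up to 10 floor genes each way, and up to 8 interaction genes each way called with and without library 25. Other genes are named as main steps of a pathway or as neighbours and were chosen after their values were seen. Some of these genes are not reported here. Counting intervals are exact (95%).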

Additional observations from a re-analysis of the deposited data

Results flagged for a closer look

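Each gene here had a line difference that changed with carboplatin, by the edgeR interaction test over 12 libraries, and each was also called without library 25. With each of the 12 libraries left out in turn, FOSL1, HDAC5, MYCL, PCDH1 and PXN were called every time, PLA2G3 11 times, CD274 10, MUC3A 9, SLC2A4 7, INSIG1 6 and FOS 5. RRM2 and SSBP2 were called 3 times, ATF3, EGR2, NMNAT2, NR4A1, SPARC and THBS1 2 times, and ALDH3B1, ELL2 and ITGA2B only without library 25. No group had more than 3 libraries, so none was tested for an outlying library. The interaction log2 was positive for NMNAT2 (2.32), THBS1 (1.89), CD274 (1.74), MYCL (1.57), MUC3A (1.55), PCDH1 (1.51), PXN (1.45) and ELL2 (1.39). It was smaller for ATF3 (1.02), SPARC (0.87), FOSL1 (0.74), EGR2 (0.59) and RRM2 (0.53). It was negative for SLC2A4 (-1.45), ALDH3B1 (-1.04), ITGA2B (-1.01), FOS (-0.89), NR4A1 (-0.85), HDAC5 (-0.70), SSBP2 (-0.66), PLA2G3 (-0.65) and INSIG1 (-0.59). NMNAT2 was under 0.2 CPM in every untreated cis SSP library, so its value rests on few reads.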

How the results depend on the processing

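No paired analysis was possible because the labels number the libraries 1 to 36 and give no replicate number within a condition. For carboplatin-treated cis SSP against cis, 9610 genes were called, with a range of 9132 to 9564 when each library was left out, 5696 in 1 fit with the 6 untreated libraries, and 1841 at an absolute log2 of at least 1. The interaction was the least stable result. Its 73 calls became 28 at an absolute log2 of at least 1, 251 with DESeq2, 45 by total counts, 41 without a filter, 280 in 1 fit over 36 libraries and 156 with the length trend removed. Leaving out 1 library at a time gave 27 to 2102 calls, and the highest value came without cis SSP library 25. The same for untreated cis SSP against cis was 1995 to 9262 calls (highest without library 25), and without serine and glycine 4011 to 11125 (highest without library 32). Signs reversed only for small values. PARP1 read 0.0668 with the length trend removed. SSBP2 in the treated pair read -0.00981 by total counts and -0.0340 to 0.0611 with each library left out. The interaction of PSAT1 read 0.00118 and that of SLC1A5 0.0299 with the length trend removed, and SLC1A5 ran from -0.0749 to 0.00746 with each library left out. The interaction of PSPH read -0.0419 by total counts, -0.0175 over 36 libraries, -0.0115 over protein-coding genes and -0.0361 to 0.118 with each library left out. Of 3185 refitted values of the named genes in the treated pair, 57 lost their call, over 32 genes, 52 of them in fits over 12 or 36 libraries. The collagen median was 0.39 with at least 10 counts in every library. With a floor of 10 counts, 57 and 39 genes met the floor rule in cis carbo and cis SSP carbo, in place of 17 and 9. The cause of these changes was not tested.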

Other observations

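Genes of the mitochondrial genome read higher in cis SSP carbo for 17 of 19, with a median log2 fold of 0.62, although 4 were called, and the libraries within a group differed in their mitochondrial share. MT-CO2, a subunit of cytochrome c oxidase, averaged 3389 CPM in cis carbo and 5999 CPM in cis SSP carbo (log2 fold 0.83 ± 0.26, edgeR adjusted p = 0.0463). MT-CO1, of the same enzyme, had 0.44 ± 0.23 (edgeR adjusted p = 0.169).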
